A study of Mus musculus with 6 samples.

Results

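The interferon-stimulated genes described here are 33 genes of the antiviral programme that interferons switch on. Their chromatin accessibility was read in OT1 CD8 T cells from mouse melanomas that did or did not also contain SMARTA CD4 T cells. A region of the deposited ATAC-seq count table (build GRCm38) was taken where its midpoint lay inside a member gene, or lay between genes with that member as the nearest protein-coding gene within 100 kb. This gave 112 of 74686 regions, 71 of them inside a member gene and 41 between genes, and they belonged to 27 of the 33 genes. Regions within 2 kb of either end of the gene (41 regions at 24 genes) were kept apart from the others (71 regions at 20 genes). No region met the rule at Ifit1, Ifit3, Mx2, Oasl1, Eif2ak2 or Ifi44. 6 member regions were also assigned to another gene by the same rule: 1 of Ifi27l2a and 5 of Mx1.

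ATAC-seq uses a transposase to cut and tag open DNA, so the number of reads in a region is a measure of its accessibility. All 6 libraries were of OT1 cells, which are CD8 T cells with a transgenic receptor for an ovalbumin peptide. The cells were sorted by CD8 and by CD45.1, an allele that marks transferred cells, out of B16-OVA-GP61 tumors, which grow from a melanoma line engineered to present both ovalbumin and the GP61 peptide. In 3 libraries the tumors held no SMARTA cells, CD4 T cells with a transgenic receptor for GP61, and in the other 3 they did. The labels give no age, host strain or time for either group and do not say whether replicates came from separate animals or pools, so the p-values reflect only the spread among libraries, which may be technical. A higher signal at a region in all cells and an open region in a larger share of the cells cannot be told apart in these bulk libraries.

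Type I interferons signal through the receptor chains IFNAR1 and IFNAR2 and the kinases JAK1 and TYK2 to a complex that includes STAT2 and IRF9 and binds interferon-stimulated response elements in promoters. Interferon gamma acts mainly through other elements, the gamma-activated sites. The induced proteins sense or degrade viral nucleic acid, block virus assembly, modify proteins with ISG15, ubiquitin or ADP-ribose, and limit the signal itself. In T cells the same genes are a usual readout of interferon exposure.

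The promoters of 24 members were matched by symbol in RefSeq (GRCm38.p6), and the 250 bases before each start site were searched for the core of the response element, GAAA followed by any 2 bases and a further GAAA, on either strand (read from the other strand, a pair of TTTC with the same spacing). 9 of the 24 members (37.5%) held a match, against 608 of 17491 protein-coding genes (3.48%) and 978 of 32851 windows of that length (2.98%). The core of the gamma-activated site, TTCNNNGAA, which reads the same on both strands, was found in 6 of the 24 members (25.0%), against 1338 protein-coding genes (7.65%) and 2306 windows (7.02%). The cores may overlap each other. Promoters of 4 members with a response element core are shown because they differ in how many cores they hold and in how their accessibility behaved. They are Isg15 (chr4:156200819-156201068, minus strand), Bst2 (chr8:71537473-71537722, minus strand), Rsad2 (chr12:26456453-26456702, minus strand) and Ifit1 (chr19:34640639-34640888, plus strand). The promoter of Trim25 (chr11:88999153-88999402, plus strand) is shown because its start-site region opened and its window holds no core. Each is written from the far end to the base before the start site, and capitals mark the cores of the response element. The core of the gamma-activated site, which the Bst2 window holds, is not marked.
Isg15: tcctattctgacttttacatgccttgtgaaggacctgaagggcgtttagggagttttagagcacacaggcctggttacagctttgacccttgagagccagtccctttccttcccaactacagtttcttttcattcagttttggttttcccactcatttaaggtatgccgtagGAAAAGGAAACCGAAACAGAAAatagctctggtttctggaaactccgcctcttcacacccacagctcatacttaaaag
Bst2: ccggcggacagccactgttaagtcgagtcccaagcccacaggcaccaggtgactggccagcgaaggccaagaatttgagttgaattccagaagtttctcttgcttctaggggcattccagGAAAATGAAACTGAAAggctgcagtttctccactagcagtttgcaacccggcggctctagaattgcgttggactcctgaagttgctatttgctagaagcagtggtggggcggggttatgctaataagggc
Rsad2: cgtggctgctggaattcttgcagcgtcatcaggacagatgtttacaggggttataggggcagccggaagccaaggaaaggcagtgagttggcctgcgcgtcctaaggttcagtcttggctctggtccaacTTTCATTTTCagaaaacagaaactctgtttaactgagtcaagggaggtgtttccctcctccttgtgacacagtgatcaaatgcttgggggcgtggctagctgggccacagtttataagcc
Ifit1: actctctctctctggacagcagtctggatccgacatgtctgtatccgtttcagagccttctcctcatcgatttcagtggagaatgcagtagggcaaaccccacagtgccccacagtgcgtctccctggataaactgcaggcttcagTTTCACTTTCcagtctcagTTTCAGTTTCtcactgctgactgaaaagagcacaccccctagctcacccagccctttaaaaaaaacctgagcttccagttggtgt
Trim25: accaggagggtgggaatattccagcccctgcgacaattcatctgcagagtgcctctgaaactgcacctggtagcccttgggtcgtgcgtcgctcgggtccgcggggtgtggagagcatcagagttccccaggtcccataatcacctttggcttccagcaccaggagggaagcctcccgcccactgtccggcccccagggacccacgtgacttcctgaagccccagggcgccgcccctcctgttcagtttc

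The cores of Isg15 form a chain of 3 that starts 78 bases before the start site, and those of Bst2 a chain of 2 that starts 130 bases before it. Rsad2 has a single core 120 bases before its start, and Ifit1 has 2 separate cores at 104 and 85 bases. The short stretches around the cores of Gbp2, Oas3, Oas1a and Stat2 follow here to compare the letters of the element, again with the core in capitals. They lie at chr3:142620594-142620623 (plus strand), chr5:120777715-120777744 (minus), chr5:120907526-120907555 (minus) and chr10:128270266-128270295 (plus).
Gbp2: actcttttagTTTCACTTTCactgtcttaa
Oas3: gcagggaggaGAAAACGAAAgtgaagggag
Oas1a: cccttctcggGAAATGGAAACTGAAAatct
Stat2: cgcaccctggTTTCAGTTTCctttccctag

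The remaining promoter with a match was that of Ifit3. A match is a stretch of letters and was not measured as a bound site.

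Total counts in the table ran from 16595779 to 27182809 per library, and the 112 member regions held 11 to 2549 counts each per library. Levels are given as CPM, the count divided by the TMM-scaled library total, so that libraries of unlike depth can be compared. 73199 of the 74686 regions, and all but 3 of the member regions, span 400 bases, so levels can be compared between regions. A region is called opened where it was higher with SMARTA cells, and closed where it was lower, at an adjusted p under 0.05 (edgeR quasi-likelihood test, Benjamini-Hochberg over all 74686 regions). Replicate 2 with SMARTA cells stood apart from the other libraries of its group on the second principal component (19.2% of the variance). All 8 T cell genes listed (Cd3d, Cd3e, Cd3g, Cd8a, Cd8b1, Cd2, Cd5, Lck) had a gene-end region. Of the 5 genes listed for CD4 T cells, Cd4 and Foxp3 had none, while Zbtb7b (64.3 CPM without and 73.0 CPM with SMARTA cells), Ctla4 (68.2 and 58.5) and Cd40lg (8.26 and 9.88) had summed gene-end counts in both groups.

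At gene ends, 6 of 41 member regions opened (14.6%) and 0 closed. Over the 17351 gene-end regions of all protein-coding genes, 5.12% opened and 3.92% closed. The balance of that background turned with the scaling, to 2.75% opened and 4.33% closed under DESeq2, 2.69% and 4.30% under total-count scaling and 2.21% and 4.42% with offsets that follow abundance, where 5, 5 and 7 member regions opened. The member count also depends on the window: within 1000 bases of a gene end 2 of 28 member regions opened (5.52% of all regions there) and 8 of 84 elsewhere (4.44%), and within 5000 bases 6 of 64 opened (4.89%) and 3 closed (5.26%). The regions that opened lay at Parp9, Trim25, Isg20, Oas3, Bst2 and Parp14, and their folds ran from 1.22 to 1.97. Those at Bst2 and Parp14 had a peak only in replicates 1 and 3 with SMARTA cells. The log2 fold was positive in 38 of the 41 regions, with a median of 0.23 against 0.08 over all gene-end regions. The number of positive folds was 37 under total-count scaling and 35 with offsets that follow abundance. The share of positive folds over all gene-end regions was not counted. Without replicate 3 with SMARTA cells the medians of members and of all gene-end regions were 0.15 and 0.10, and without replicate 1 of the other group 0.17 and 0.06. Leaving out any other library gave member medians of 0.25 to 0.31. Leaving out a single library of the group with SMARTA cells gave 4, 8 and 2 opened gene-end regions (replicates 1, 2 and 3 in turn), against 5.99%, 4.13% and 3.12% of all gene-end regions. Leaving out one of the other group gave 2, 3 and 3, against 1.67%, 1.71% and 1.11%. In 12 of the 41 regions (29.3%, against 22.5% of all gene-end regions) the 3 libraries with SMARTA cells all lay above the 3 without, and in 2 (4.88%, against 10.3%) all lay below.

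Away from gene ends, 4 of 71 member regions opened (5.63%) and 5 closed (7.04%), against 4.49% and 12.0% of the 53846 other assigned regions. The opened ones lay at Sp100 (3) and Ifit2, and the closed ones at Ifih1 (2), Rsad2 (2) and Sp100. With replicates 1, 2 and 3 of the SMARTA group left out in turn, 2, 4 and 1 regions opened, against 3.65%, 6.14% and 2.12% of all other assigned regions, and 3, 5 and 3 closed, against 6.93% to 13.1% (lowest without replicate 3, highest without replicate 2). With those of the other group left out, 1, 1 and 1 opened, against 2.59%, 1.69% and 1.78%, and 4, 2 and 2 closed, against 9.57%, 7.73% and 7.56%. The median log2 fold was 0.19 for members and -0.02 for all such regions. The libraries with SMARTA cells all lay above the others in 13 member regions (18.3%, against 13.6%) and all below in 6 (8.45%, against 20.6%). Over both positions, the libraries with SMARTA cells were all above in 25 of the 112 regions (22.3%, against 15.7% of all regions) and all below in 8 (7.14%, against 18.5%). Counted by gene, 7 of the 27 members with a region had only opened ones (25.9%), 2 only closed ones (7.41%), Sp100 had both kinds (3.7%) and 17 had regions of which none passed (63.0%). Over the 15608 protein-coding genes with a region these shares were 9.93%, 18.4%, 4.92% and 66.8%. The median was 3 regions a gene, against 4 for the members. Among the 7 members with only opened regions, Bst2 and Parp14 are counted through regions with a peak only in replicates 1 and 3 with SMARTA cells. Such listing can favour an opened call, so these shares are a description and no support for an excess.

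**Figure D1:**
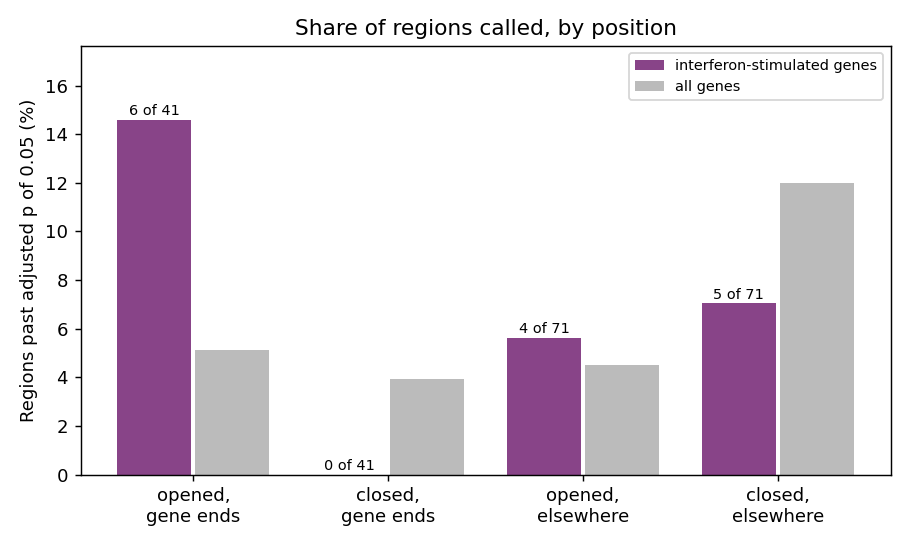
Share of regions past an adjusted p of 0.05 (vertical axis, %, gene ends taken as within 2 kb), for regions of interferon-stimulated genes (purple, counts above the bars) and of all genes (grey), split by direction and by position. At gene ends 14.6% of the member regions opened and 0 closed, and elsewhere 5.63% opened and 7.04% closed.

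The calls were also counted by level. Among gene-end regions with a mean of 10 CPM or more, 4 of 26 member regions opened (15.4%) and 0 closed, against 7.53% and 1.58% of 10284 regions, and the medians of the log2 fold were 0.19 and 0.12. All libraries with SMARTA cells lay above the others in 8 of the 26 (30.8%), close to the 32.7% of all such regions. They lay below in 1 of the 26 (3.85%), against 5.17%. Under 10 CPM, 2 of 15 opened (13.3%) and 0 closed, against 1.63% and 7.32% of 7067 regions, and the medians were 0.39 and -0.08. Both opened ones, at Bst2 and Parp14, had a peak only in replicates 1 and 3 with SMARTA cells. A region listed through peaks of the group where it is high would tend to be called in that direction. The share in this class is therefore a description and no support for an excess. In this lower class the libraries with SMARTA cells were all above in 4 of the 15 (26.7%), against 7.73%, and all below in 1 (6.67%), against 17.7%. The summed CPM over the 41 gene-end regions was 751.7, 845.1 and 841.9 in replicates 1 to 3 without SMARTA cells and 947.8, 875.3 and 1028.5 with them. Over the 71 other regions the sums were 491.7, 528.3 and 519.0 without and 561.5, 558.9 and 607.0 with. In both sums every library with SMARTA cells was higher than every library without them. These sums are a description with no test and were not made over all genes, so the separation cannot be read as particular to the members. Replicate 2 with SMARTA cells was the lowest of its group in 25 of the 41 gene-end regions (61.0%, against 32.0% of all gene-end regions), and replicate 3 was the highest in 27 (65.9%, against 24.6%). In the group without SMARTA cells, replicate 1 was the lowest in 27 (65.9%, against 49.8%).

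**Figure D2:**
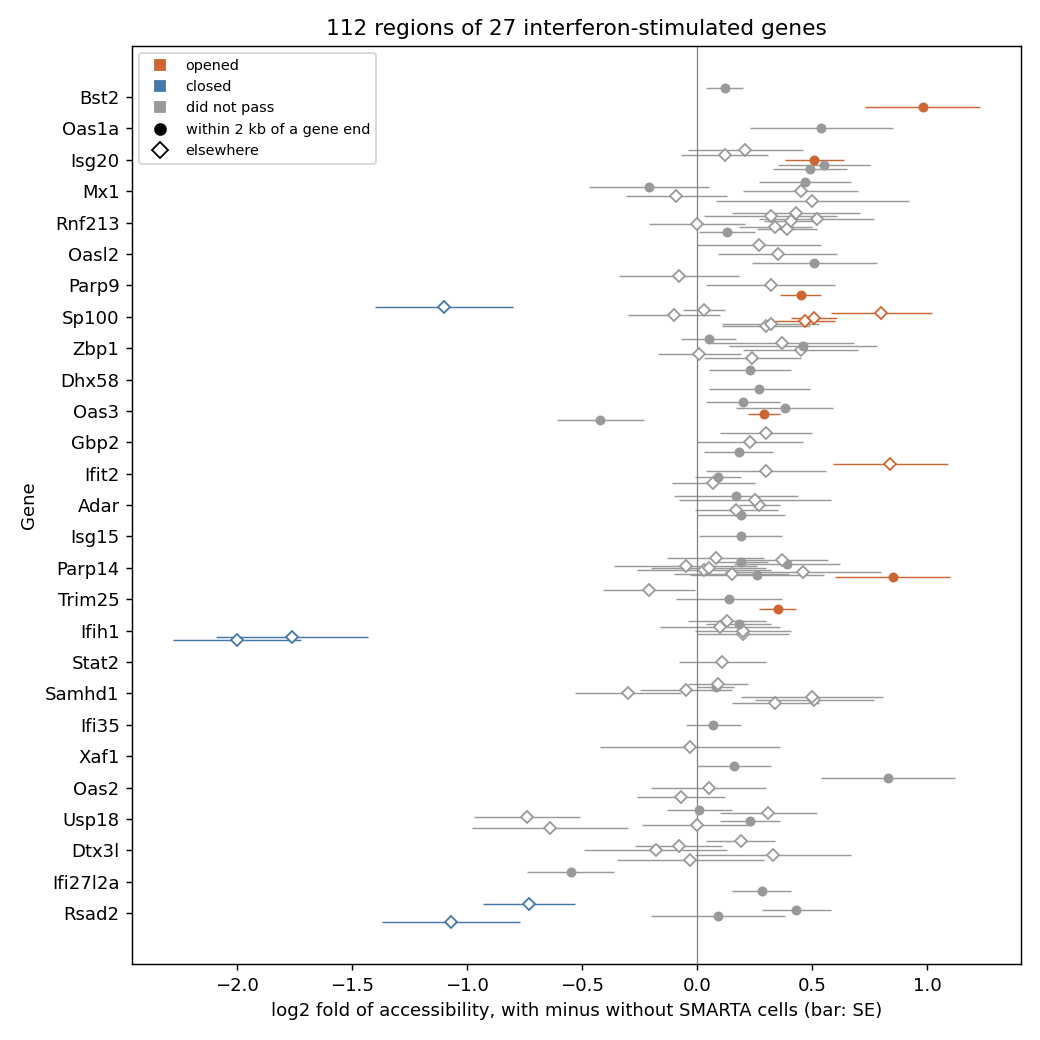
Log2 fold of accessibility with minus without SMARTA cells for each member region (horizontal axis, bars are the SE), by gene (vertical axis). Most points lie right of 0 with folds under 1, and the closed regions of Ifih1, down to -2.00, lie farthest from 0.

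Members that act in the nucleus or in signalling are Stat2, Sp100 and Ifi35, with 10 regions of which 3 opened and 1 closed and a median log2 fold of 0.20. Sp100, a scaffold protein of PML nuclear bodies that restricts viral DNA, was the member with the most calls. Its regions did not move together: of 8 regions, all more than 2 kb from its ends, 3 opened and 1 closed. The region at chr1:85687330-85687730, 22.5 kb from the nearer end and inside the gene, held 30.03, 34.45 and 33.97 CPM without SMARTA cells and 48.83, 45.05 and 46.82 CPM with them. Every library with SMARTA cells was higher, with a log2 fold of 0.51 ± 0.10 (SE, edgeR, adjusted p = 0.0059). The region at chr1:85680182-85680582 held 18.2, 21.9 and 21.4 CPM without and 31.1, 26.8 and 27.6 CPM with SMARTA cells (0.47 ± 0.13, adjusted p = 0.038). A weaker region at chr1:85702566-85702966 held 3.24, 4.27 and 4.42 CPM without and 7.08, 5.59 and 8.08 CPM with them (0.80 ± 0.22, adjusted p = 0.032). In both, the groups did not overlap, and the weaker one had a peak only in replicates 1 and 3 with SMARTA cells.

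About 3.71 kb from the end of Sp100, the region at chr1:85706086-85706486 went the other way, at 5.73, 9.80 and 7.93 CPM without and 5.04, 2.23 and 3.67 CPM with SMARTA cells (-1.10 ± 0.30, adjusted p = 0.033). Again there was no overlap, and replicate 2 with SMARTA cells was the lowest library. Peaks there were called only in replicates 2 and 3 without SMARTA cells. Like the weaker opened region, it thus had peaks only in the group where it was higher, which limits what its call can show. The most accessible region of the gene, which starts at position 85703535 between these, held 54.9, 50.2 and 48.0 CPM without and 51.2, 56.5 and 48.6 CPM with, a log2 fold of 0.03 that did not pass. The region at 85687330 passed under all 12 changes of scaling, filter, test or libraries that were tried. The regions at 85680182 and 85702566 lost their calls when any library except replicate 2 with SMARTA cells was left out, with adjusted p-values of 0.068 to 0.1 and 0.064 to 0.11, and the first of them also with a replicate block (adjusted p = 0.076). The closed region lost it without replicate 2 or 3 of the group without SMARTA cells or replicate 3 with them (adjusted p = 0.12, 0.092 and 0.11), and with a replicate block (adjusted p = 0.06).

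Stat2 encodes the STAT protein of the interferon complex, and the 1 region that met the rule lay in its body at a low level (3.65 CPM without, 3.95 CPM with) and did not pass (0.11, adjusted p = 0.75). Its start-site region at chr10:128270265-128270665 had its midpoint just outside the gene, in the neighbouring Apof, and is therefore not among the members. It held 48.9, 53.1 and 54.0 CPM without and 59.8, 56.0 and 62.6 CPM with SMARTA cells. The groups did not overlap, and the log2 fold of 0.19 ± 0.08 did not pass (adjusted p = 0.13). Ifi35, an interferon-induced leucine zipper protein, held 27.9, 29.8 and 28.2 CPM without and 27.9, 28.7 and 33.5 CPM with at its start, with overlapping groups (0.07 ± 0.12, adjusted p = 0.75).

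The ADP-ribosylation and ubiquitin genes gave 3 of the 6 gene-end calls, of which that of Parp14 was lost in 9 changes of setting. In this group of 30 regions, 3 opened (10.0%, against 4.68% of all regions) and 0 closed (against 10.4%), with a median log2 fold of 0.22. Parp9 encodes a member of the ADP-ribosyltransferase family that works in a complex with the ubiquitin ligase Dtx3l, and their gene intervals share 558 bases. The Parp9 region at chr16:35939631-35940031, inside the gene and 1.36 kb from its end, held 35.6, 39.4 and 40.5 CPM without and 49.6, 51.8 and 56.1 CPM with SMARTA cells. The lowest library with SMARTA cells was above the highest without, and the log2 fold was 0.45 ± 0.09 (adjusted p = 0.009). This region also lies 0.8 kb before the start site of Dtx3l, whose own 5 regions all lay more than 2 kb from that gene's ends and did not pass. The Parp9 call was kept under all 12 changes.

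Trim25, the ubiquitin ligase that acts on the RNA sensor RIG-I, opened at its start site (chr11:88999191-88999591), the region that overlaps the promoter printed above. It held 41.2, 42.3 and 45.0 CPM without and 55.7, 51.6 and 56.2 CPM with SMARTA cells. There was no overlap (0.35 ± 0.08, adjusted p = 0.016), and leaving out replicate 2 without SMARTA cells gave an adjusted p of 0.068. Parp14, a mono-ADP-ribosyltransferase, opened at chr16:35830504-35830904, 1.19 kb outside its end. That region was near the lower limit of the table, at 1.39, 0.961 and 1.36 CPM without and 2.04, 2.17 and 2.47 CPM with SMARTA cells (0.85 ± 0.25, adjusted p = 0.046), and it had a peak in only 2 of the 6 deposited peak lists. The groups did not overlap, but the call was lost whichever library was left out (adjusted p-values of 0.053 to 0.16) and in 9 of the 11 changes in all under which the region was tested.

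The start-site region of Parp14 was far more accessible and did not pass, at 25.6, 28.7 and 26.3 CPM without and 30.5, 27.4 and 34.1 CPM with SMARTA cells, where the groups overlapped (0.19 ± 0.12, adjusted p = 0.34). Rnf213, a very large ubiquitin ligase, had 8 regions of which none passed. In 3 of its regions away from the gene ends, those that start at positions 119391994, 119392841 and 119428681, all libraries with SMARTA cells lay above the others, with log2 folds of 0.39, 0.34 and 0.41 and adjusted p-values of 0.061, 0.19 and 0.052. The first of these lay just beyond the 2 kb limit, where Rnf213 had means of 21.0 CPM without and 27.5 CPM with SMARTA cells. The member region nearest inside that limit was the one of Oas3 at 1.86 kb.

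The oligoadenylate synthetases detect double-stranded RNA and make the short oligoadenylates that activate RNase L. Of their 11 regions 1 opened (9.09%, against 4.68% of all regions) and 0 closed (against 10.4%), with a median log2 fold of 0.29. The Oas3 region at chr5:120775624-120776024, 1.86 kb inside the gene, was the most accessible of all member regions, at 73.8, 81.5 and 76.0 CPM without and 87.2, 100.3 and 95.4 CPM with SMARTA cells. The groups did not overlap, and the log2 fold of 0.29 ± 0.07 was the smallest among the opened member regions (adjusted p = 0.024). Under offsets that follow abundance the adjusted p was 0.13, and under DESeq2 0.076, and it was 0.073, 0.098 and 0.056 when replicate 1 or 3 lacking SMARTA cells or replicate 3 with them was dropped. The start-site region of Oas3, which holds a response element core, was lower, at 10.91, 13.92 and 15.99 CPM without and 19.04, 13.35 and 20.62 CPM with (0.38 ± 0.21, adjusted p = 0.27), and its groups overlapped because of replicate 2 with SMARTA cells.

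The start-site regions of the other synthetases did not pass. Oas2 held 1.64, 1.65 and 1.98 CPM without and 1.88, 3.31 and 4.15 CPM with SMARTA cells (0.83 ± 0.29, adjusted p = 0.079). Oas1a was as low, at 1.79, 1.46 and 1.61 CPM without and 1.63, 1.86 and 3.44 CPM with (0.54 ± 0.31, adjusted p = 0.27). Oasl2, a synthetase-like protein, held 12.8, 12.7 and 13.0 CPM without and 19.6, 10.3 and 24.5 CPM with SMARTA cells (0.51 ± 0.27, adjusted p = 0.24). Replicates 1 and 3 with SMARTA cells were above all others there and replicate 2 was below all others.

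The antiviral effectors that act on RNA, nucleotides or virions had 2 opened and 2 closed regions of 18, with a median log2 fold of 0.16. Each count is 11.1%, against 4.68% opened and 10.4% closed of all regions. Isg20, an exonuclease that degrades viral RNA, opened at chr7:78913719-78914119, which overlaps a RefSeq promoter window without a response element core. It held 31.2, 40.3 and 41.7 CPM without and 54.3, 47.0 and 60.0 CPM with SMARTA cells, with no overlap (0.51 ± 0.13, adjusted p = 0.023). When replicate 1 lacking SMARTA cells, or replicate 1 or 3 with them, was dropped, the adjusted p was 0.058, 0.054 and 0.074. The other 2 gene-end regions of Isg20 also had every library with SMARTA cells on top, at log2 folds of 0.55 ± 0.20 and 0.49 ± 0.16, without passing (adjusted p = 0.091 and 0.065). Bst2 encodes tetherin, which holds budding virions at the cell surface. Its opened region at chr8:71535672-71536072, inside the gene and 1.60 kb from its end, held 3.73, 3.61 and 3.55 CPM without and 8.55, 4.51 and 8.27 CPM with SMARTA cells. With a log2 fold of 0.98 ± 0.25 (adjusted p = 0.026) this was the largest fold among the opened regions, replicate 2 with SMARTA cells lay nearest to the other group, and only replicates 1 and 3 with SMARTA cells had a peak there.

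The start-site region of Bst2, where the response element cores lie, held 42.8, 43.3 and 41.9 CPM without and 45.2, 45.5 and 48.2 CPM with. The groups were narrow and did not overlap, but the difference was small and did not pass (0.12 ± 0.08, adjusted p = 0.37). The weaker Bst2 region lost its call when any library other than replicate 2 with SMARTA cells was left out, with adjusted p-values of 0.072 to 0.096.

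Rsad2 encodes viperin, a radical-SAM enzyme that makes a chain-terminating nucleotide. Its 2 calls were both closed and both lay outside the gene. The region at chr12:26460035-26460435, 3.78 kb from the start, held 6.57, 8.11 and 8.39 CPM without and 4.18, 4.51 and 5.24 CPM with SMARTA cells (-0.73 ± 0.20, adjusted p = 0.032). The region beyond the other end, at chr12:26439358-26439758, held 2.89, 2.77 and 4.01 CPM without and 0.866, 1.68 and 1.98 CPM with (-1.07 ± 0.30, adjusted p = 0.037). In each the groups did not overlap. The region beyond the other end had peaks in all 3 libraries without SMARTA cells but only in replicate 3 with them. Its counts went down to 17, and both points limit what its call can show. The first call was lost on dropping replicate 2 or 3 lacking SMARTA cells or replicate 1 or 3 with them (adjusted p-values of 0.064 to 0.13), and the second on dropping any replicate lacking SMARTA cells or replicate 1 with them (0.062 to 0.15). The start-site region of Rsad2 between them differed in sign, at 18.6, 22.5 and 22.9 CPM without and 25.1, 27.7 and 33.1 CPM with SMARTA cells. All libraries with SMARTA cells were higher there, and the log2 fold of 0.43 ± 0.15 did not pass (adjusted p = 0.08). Samhd1, which destroys the nucleotides that reverse transcription needs, was the most accessible start site of this group, at 51.2, 54.5 and 53.5 CPM without and 52.0, 58.0 and 57.7 CPM with (0.08 ± 0.08, adjusted p = 0.58), and its groups overlapped.

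**Figure D3:**
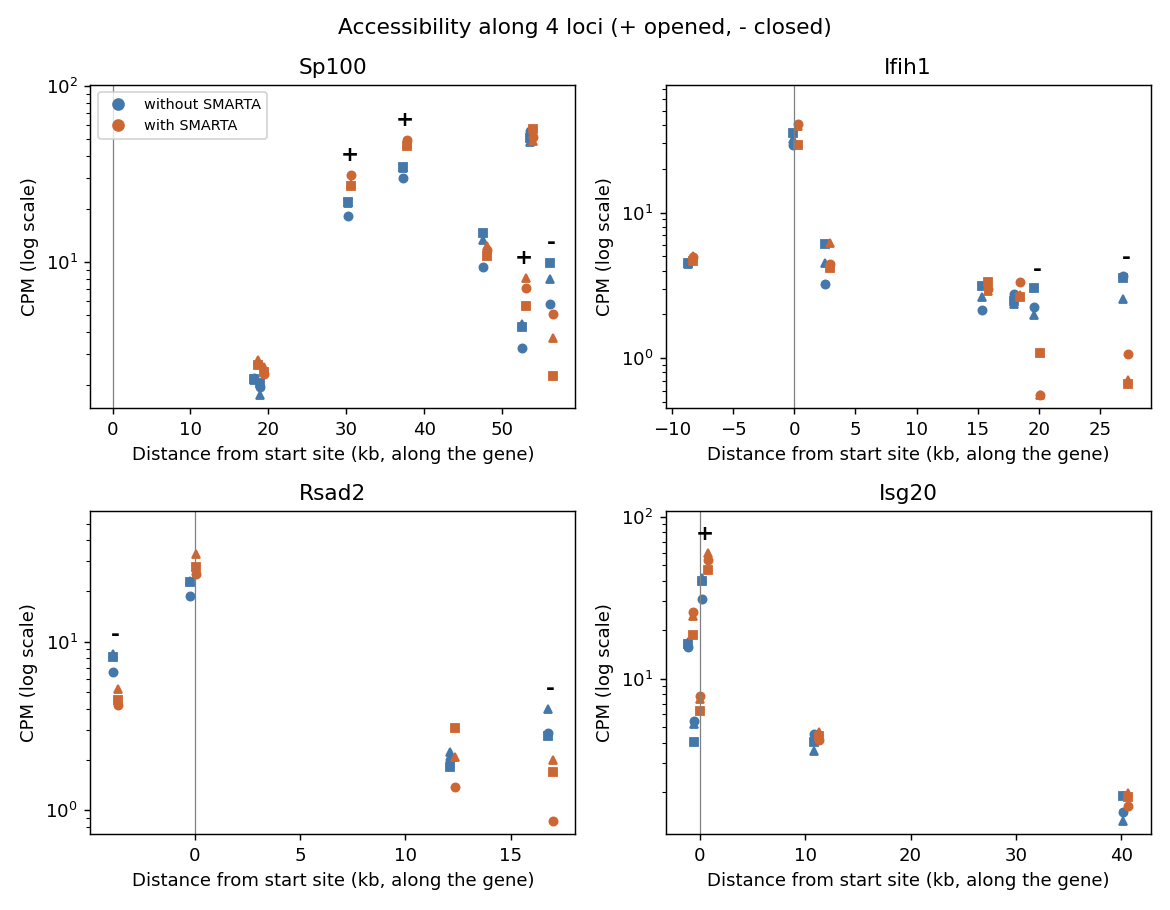
Accessibility in CPM (vertical axis, log scale) against distance from the start site (horizontal axis, kb) for Sp100, Ifih1, Rsad2 and Isg20, with a symbol shape for each replicate number, blue without and orange with SMARTA cells, drawn slightly apart. Plus and minus signs mark opened and closed regions: Sp100 has both, and the closed regions of Ifih1 and Rsad2 lie away from start sites.

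The sensors of foreign nucleic acid had 0 opened and 2 closed (10.0%) of 20 regions, against 4.68% and 10.4% of all regions, with a median log2 fold of 0.20. Both closed regions were in the body of Ifih1, the gene of the double-stranded RNA sensor MDA5, and they had the largest changes of any member. The region at chr2:62618951-62619351 held 3.69, 3.54 and 2.56 CPM without and 1.07, 0.662 and 0.711 CPM with SMARTA cells. The lowest library without SMARTA cells was above the highest with them by a wide margin, and the log2 fold was -2.00 ± 0.28 (adjusted p = 0.0013). At chr2:62626212-62626612 the levels were 2.24, 3.04 and 1.98 CPM without and 0.560, 1.08 and 0.561 CPM with SMARTA cells (-1.76 ± 0.33, adjusted p = 0.0064). Peaks at this second region were called in the 3 libraries without SMARTA cells and in no other, and at the first also in replicate 1 with SMARTA cells. The peaks come from the same reads as the counts, so they add no separate support. A region listed through peaks of the group where it is high would tend to be called in that direction. Both calls were kept in every change under which they were tested, 12 for the first and 11 for the second, but these changes refit the same counts and cannot remove that tendency.

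The Ifih1 start site did not close, at 29.2, 35.0 and 31.8 CPM without and 40.4, 28.9 and 39.4 CPM with SMARTA cells, with overlapping groups (0.18 ± 0.14, adjusted p = 0.45). Zbp1, a sensor of Z-form nucleic acid, held 40.7, 50.6 and 47.6 CPM without and 47.2, 41.3 and 55.2 CPM with at its start (0.05 ± 0.12, adjusted p = 0.83). Adar, the enzyme that edits adenosine in double-stranded RNA, was read in the region 0.111 kb inside the start of its gene interval. It held 12.2, 13.1 and 15.0 CPM without and 12.6, 14.4 and 18.7 CPM with (0.19 ± 0.19, adjusted p = 0.57). The nearest of the RefSeq start sites used here lay 442 bases from the midpoint of that region. The groups overlapped at both genes. Another RefSeq start site of Adar lay in a more accessible region inside the gene, with means of 47.6 and 57.3 CPM. All libraries with SMARTA cells were above the others in that region without passing (0.27, adjusted p = 0.066). None of the 2 regions of Dhx58, which encodes the RNA helicase LGP2, passed.

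Among the IFIT genes, whose proteins bind RNA with foreign ends, 4 regions met the rule and all were at Ifit2. Of these, 1 opened (25.0%) and 0 closed, against 4.68% and 10.4% of all regions. The region at chr19:34570018-34570418, 6.32 kb from the gene's end, opened at 4.83, 4.31 and 4.46 CPM without and 8.76, 5.29 and 10.2 CPM with SMARTA cells. The groups did not overlap, replicate 2 with SMARTA cells was nearest to the other group, and the log2 fold was 0.84 ± 0.25 (adjusted p = 0.044). The call was lost under total-count scaling (adjusted p = 0.052), with a replicate block (adjusted p = 0.056) and when any library except replicate 2 with SMARTA cells was left out (0.094 to 0.15). The Ifit2 start site did not pass, at 36.7, 42.8 and 40.3 CPM without and 41.0, 41.4 and 45.5 CPM with (0.09 ± 0.10, adjusted p = 0.57). The Ifit1 start-site region had its midpoint outside the gene, in the overlapping Ifit1bl1 and Ifit1bl2, so its reads cannot be given to a single gene. It held 16.3, 18.5 and 17.2 CPM without and 23.3, 17.8 and 29.7 CPM with SMARTA cells (0.45 ± 0.19, adjusted p = 0.14), and replicate 2 with SMARTA cells lay within the other group.

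ISG15 is a ubiquitin-like protein that interferon induces and that is joined to other proteins, and Usp18 both removes it and blocks the interferon receptor. None of their 7 regions passed, against 4.68% opened and 10.4% closed of all regions, and the median log2 fold was 0.01. The Isg15 start site, the promoter with 3 cores printed above, held 13.3, 18.2 and 18.1 CPM without and 20.3, 16.3 and 19.8 CPM with SMARTA cells. The groups overlapped (0.19 ± 0.18, adjusted p = 0.53). The Usp18 start site held 25.0, 32.3 and 33.3 CPM without and 36.5, 32.7 and 37.3 CPM with (0.23 ± 0.13, adjusted p = 0.27). The groups overlapped.

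The interferon-induced GTPases had 0 calls in 8 regions, where 4.68% of all regions opened and 10.4% closed. Gbp2, a guanylate-binding protein that coats intracellular pathogens, held 17.7, 23.3 and 22.2 CPM without and 24.5, 21.4 and 25.5 CPM with at its start (0.18 ± 0.15, adjusted p = 0.48). Mx1 and Mx2, dynamin-like antiviral proteins, are transcribed pseudogenes in the RefSeq annotation of this build, and all 5 regions of Mx1 were also assigned to its neighbours Bace2 or Fam3b. At Mx1, the region 0.570 kb from the gene's end held 3.04, 3.96 and 3.10 CPM without and 4.79, 4.21 and 5.01 CPM with SMARTA cells, without overlap and without passing (0.47 ± 0.20, adjusted p = 0.14). Its start-site region, whose midpoint fell outside the gene, held 23.8, 29.6 and 25.3 CPM without and 30.6, 26.5 and 33.4 CPM with, and its groups overlapped (0.20 ± 0.14, adjusted p = 0.37).

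Of the remaining interferon-induced genes, Xaf1 encodes a partner of the apoptosis inhibitor XIAP. Its start site held 17.58, 21.8 and 21.61 CPM without and 21.74, 19.97 and 26.61 CPM with (0.16 ± 0.16, adjusted p = 0.54). Ifi27l2a had 2 gene-end regions of unlike sign with no overlap between groups in either. The region that starts at 103433999 held 26.5, 34.3 and 34.3 CPM without and 41.1, 34.9 and 39.8 CPM with (0.28 ± 0.13, adjusted p = 0.17), and the region that starts at 103443543 held 14.2, 14.8 and 17.6 CPM without and 10.7, 8.72 and 12.3 CPM with (-0.55 ± 0.19, adjusted p = 0.078). Neither passed.

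For Oasl1, Ifit3, Mx2 and Ifi44, which had no region under the rule and no count of a region that overlapped them, accessibility was read from the authors' deposited peak lists, which were called per library. The fold enrichment of the highest peak at Oasl1 was 11.8, 14.9 and 16.8 without and 18.0, 15.0 and 16.9 with SMARTA cells. At Ifit3 it was 9.16, 10.5 and 10.7 without and 10.2, 9.36 and 10.5 with, and at Mx2 5.81, 7.64 and 6.95 without and 8.80, 6.35 and 7.72 with. The groups overlapped at all 3 genes, and no peak within 2 kb of Ifi44 was in any list. Enrichments of separate lists depend on each library's depth and were not compared by a test. Eif2ak2, which encodes the RNA-activated kinase PKR, had a start-site region with its midpoint outside the gene, in Gm26637, at 17.03, 18.65 and 17.48 CPM without and 17.16, 11.97 and 19.35 CPM with (-0.13 ± 0.19, adjusted p = 0.71), and replicate 2 with SMARTA cells was the lowest library.

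Summing the gene-end regions of each gene before the test gave a value per gene for 23 members. 4 were higher with SMARTA cells and 0 lower, against 5.96% and 3.24% of 12489 genes tested. The share of genes that were higher moved widely with the setting, to 10.8% under DESeq2, 11.9% with a replicate block, 1.67% under total-count scaling and 0.881% with offsets that follow abundance, where 5, 5, 3 and 1 members were higher. All 23 log2 folds were positive, with a median of 0.19 against 0.09 over all genes, whose share of positive folds was not counted. The libraries with SMARTA cells all lay above the others at 8 of the 23, against 26.5% of all genes, and all below at 0, against 9.01%. Isg20 had the largest change among those that passed, at 52.3, 60.6 and 63.8 CPM without and 87.8, 71.8 and 92.0 CPM with SMARTA cells (0.51 ± 0.10, adjusted p = 0.0082). Parp9, with the single region described above, had an adjusted p of 0.0086. Oas3 held 110.0, 120.3 and 117.1 CPM without and 137.6, 136.0 and 141.9 CPM with (0.26 ± 0.06, adjusted p = 0.022), and Trim25 held 47.8, 47.9 and 52.0 CPM without and 64.3, 56.5 and 63.8 CPM with (0.32 ± 0.08, adjusted p = 0.029). None of the 4 showed overlap between groups. When replicate 1 lacking SMARTA cells was dropped, only 1 gene passed (adjusted p of 0.061 for Isg20, 0.12 for Oas3 and 0.1 for Trim25), without replicate 3 of that group 2 passed (0.074 for Oas3 and 0.052 for Trim25), and Trim25 also did not pass without replicate 2 of that group (0.081) or replicate 3 with SMARTA cells (0.053). Over all genes, 0.617%, 1.67%, 1.94% and 4.67% were higher in these fits, in the order replicate 1, 3 and 2 lacking SMARTA cells and replicate 3 with them. With offsets that follow abundance, only the sum of Parp9 passed, and the median gene-end log2 fold over all regions was 0.01 and that of the 41 member regions 0.21.

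**Figure D4:**
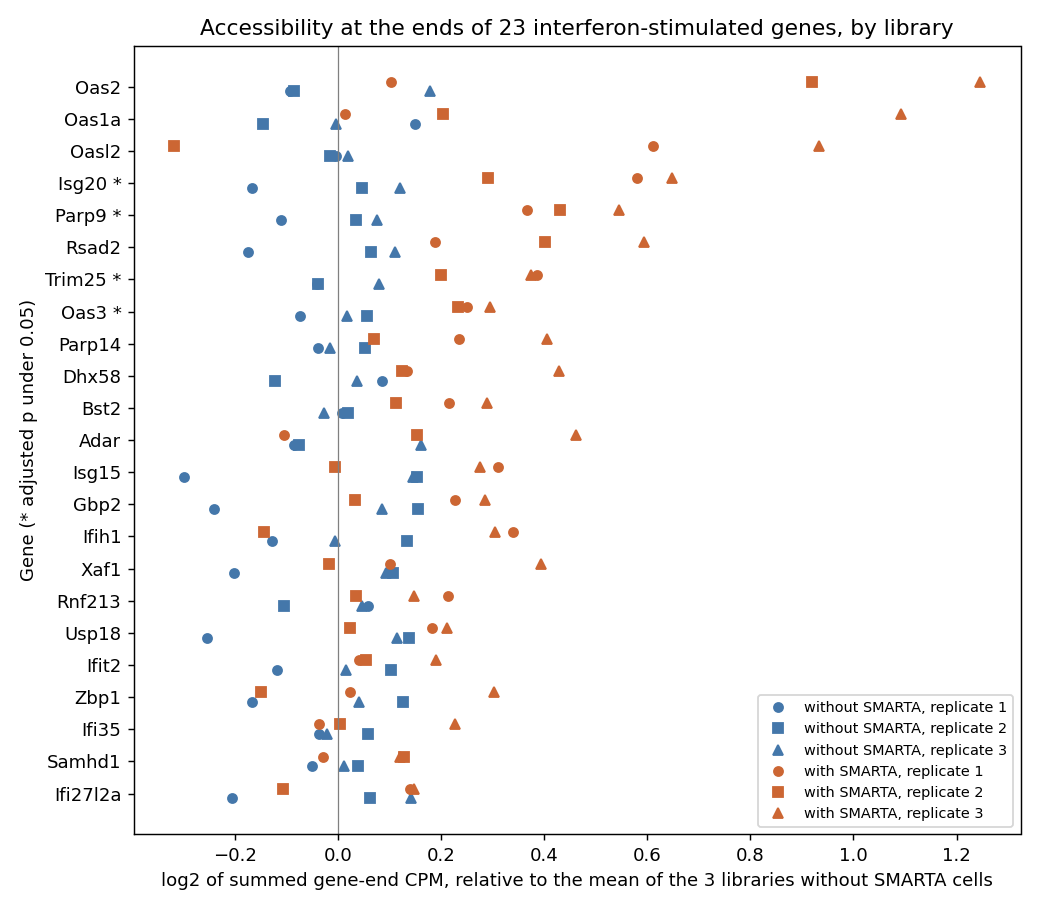
Summed gene-end accessibility of each member (vertical axis) in each of the 6 libraries, as log2 relative to the mean of the 3 libraries without SMARTA cells (horizontal axis), with an asterisk where the adjusted p is under 0.05. The log2 fold is positive at all 23 members, beside a median of 0.09 over all genes, and the 4 that passed are Isg20, Parp9, Oas3 and Trim25.

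The opened regions were set beside the response element. 19 regions of the table overlapped the 250-base windows of members, the start-site regions of Stat2, Ifit1 and Eif2ak2 included. Of the 8 with a core, 0 opened or closed, and their log2 folds ran from 0.12 to 0.54 with a median of 0.29. Of the 11 without a core, 2 opened (Trim25 and Isg20), with a median of 0.18. Over all genes, 10 of 260 promoter regions with a core opened (3.85%) and 8 closed (3.08%), against 600 (6.58%) and 211 (2.32%) of 9114 without it, and the medians were 0.09 and 0.10. The opened gene-end regions of Oas3 and Bst2 overlapped no RefSeq promoter window of their gene. No promoter entry was matched for Parp9 or Parp14, so an overlap could not be read for their opened regions. The letters of the opened regions of Parp9, Oas3, Bst2 and Parp14 were not searched.

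Genes that make, receive or limit the interferon signal were read by the same rule. Over all 74686 regions, 4.68% opened and 10.4% closed. Among the transcription factors of the pathway, 8 of 8 genes had 72 regions, of which 0 opened and 24 closed (33.3%), with a median log2 fold of -0.36. Most of these lay at Irf8, a factor best known from myeloid and B cells, with 12 of 22 regions closed, and at Irf2, which competes with activating factors at response elements, with 11 of 24. The region with the smallest p at Irf8 had a log2 fold of -2.40 ± 0.33 (adjusted p = 0.0012), that at Irf2 -2.25 ± 0.24 (adjusted p = 0.00045), and 1 region of Irf1 closed (-0.88 ± 0.21, adjusted p = 0.019). Summed over gene ends, Irf8 was lower (-0.55, adjusted p = 0.0082) and Irf7, the factor that amplifies interferon production, was higher (0.31, adjusted p = 0.047).

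The interferon genes themselves had 63 regions, of which 2 opened (3.17%) and 13 closed (20.6%), with a median of -0.20. At Ifng, interferon gamma, 10 of 33 regions closed and 1 opened, and the smallest p was at a region with a log2 fold of -3.22 ± 0.38 (adjusted p = 0.00061). At Ifna2, an alpha interferon, 2 of 3 closed, the first by p at -1.75 ± 0.33 (adjusted p = 0.0067). Receptors and kinases had 8 opened (6.3%) and 13 closed (10.2%) of 127 regions, with a median of 0.03. Jak1, the kinase shared by all interferon receptors, had 4 of each kind among 35 regions. Closed regions with the smallest p were at Tyk2 (-2.12 ± 0.30, adjusted p = 0.0015), Il10rb, a receptor chain for lambda interferons (-1.24 ± 0.20, adjusted p = 0.0031), and Jak1 (-1.28 ± 0.23, adjusted p = 0.0046). Genes of feedback had 8 opened (14.3%) and 2 closed (3.57%) of 56 regions, with a median of 0.18. Ptpn2, a phosphatase that switches off JAK and STAT proteins, had 4 opened and 1 closed of 13, the closed one at -1.74 ± 0.29 (adjusted p = 0.0033). Pias1, an inhibitor of STAT signalling, had a closed region (-0.98 ± 0.19, adjusted p = 0.0078), and the phosphatase Ptpn1 had a region with a log2 fold of 0.76 ± 0.15 (adjusted p = 0.008).

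The genes of nucleic acid sensing upstream of interferon had 3 opened and 3 closed of 34 regions (8.82% each). Ddx58, the gene of the RNA sensor RIG-I, opened at its start (0.52 ± 0.14, adjusted p = 0.036), the kinase gene Ikbke had an opened region (0.63 ± 0.18, adjusted p = 0.038), and the kinase gene Tbk1 had a closed region (-2.40 ± 0.38, adjusted p = 0.0029). A further list of interferon-stimulated genes that are not members had 52 of 58 genes with a region. Of its 283 regions 18 opened (6.36%) and 12 closed (4.24%), with a median of 0.17, close to the 0.20 of the 112 member regions. The strongest calls in that list were closed regions, at Parp11 (-2.97 ± 0.23, adjusted p = 0.00021), Slfn2 (-2.61 ± 0.29, adjusted p = 0.00047) and Aim2 (-2.16 ± 0.27, adjusted p = 0.0009). By gene-end sums in the main fit, 7 of its 50 genes were higher and 0 lower, against 5.96% and 3.24% of the 12489 genes tested. The share over all genes moved widely with the setting, as given above.

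Markers of other cells were read beside these values, as the range of the summed gene-end CPM in each group. T cell markers ran from 687.2 to 745.4 without and from 722.1 to 794.3 with SMARTA cells. The CD4 T cell list ran from 131.6 to 150.3 and from 122.0 to 159.0, and the macrophage list from 67.0 to 73.2 and from 51.7 to 69.2, with no gene-end region at Adgre1, Fcgr1 or Lyz2. Dendritic cell markers ran from 29.6 to 38.6 and from 28.8 to 45.6, B cell markers from 24.7 to 35.0 and from 22.0 to 30.3, NK markers from 89.6 to 111.6 and from 70.2 to 110.1, and stromal markers from 30.9 to 32.7 and from 30.1 to 32.4. The melanoma list was the only one whose groups did not overlap, at 154.7 to 170.9 without and 178.0 to 190.3 with. It had no gene-end region at Dct, Sox10, Tyr or Tyrp1, and its sum came mostly from Pmel (127.2 CPM without and 143.2 CPM with). Of its gene sums only Mitf passed (0.33, adjusted p = 0.038). Its part in the member results was not tested.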

How the data were processed

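The values tested are raw read counts, deposited by the authors as whole numbers for 74686 regions and 6 libraries. A peak list was deposited for every library separately, and its fold enrichment over background is the authors' value and was used only to describe peaks. According to the submitters' processing notes the build was GRCm38, and the tools were DiffBind 3.4.11, MACS2 2.1.1, Picard 2.18.9, SAMtools 1.8 and BWA 0.7.17. What each tool did, whether duplicates were removed, whether read ends were shifted for the transposase and how the region table was built is not given in the sources used. Duplicates left in would raise counts, and a table built from peaks of these libraries leaves out sites that were open in too few of them.

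Regions were assigned by midpoint to the gene intervals of the RefSeq gene table, and promoter sequences are those of RefSeq GRCm38.p6. Counts were fitted over all regions with edgeR 4.0.16 in R 4.3.3 (TMM scaling, filterByExpr, which removed 0 regions, glmQLFit and glmQLFTest) and adjusted by Benjamini-Hochberg over all 74686 regions, with a threshold of 0.05. A positive log2 fold means higher accessibility with SMARTA cells, and errors after ± on folds are standard errors. Groups and replicate numbers come from the sample titles. The 3 libraries a group were compared without a block, and the code was tested on simulated counts. Gene-end sums per gene were fitted in the same way over 12489 genes. The median region held 62 to 114 counts per library, a counting error of 12.7% to 9.4%, beside a fitted biological coefficient of variation of 18%, and the lowest member count of 11 has a counting error of 30.2%.

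The members and the gene lists were chosen with earlier results of these data known. All members are accounted for. Library values are given for each member region past the threshold and for at most 3 of the most accessible gene-end regions per role group, and a few further members are given in full that were picked after their values were seen. In other lists at most 3 genes were named, those with the smallest p among regions past the threshold, and any other gene named there was picked after its values were seen. Alternatives were DESeq2 1.42.0, total-count scaling, offsets that follow abundance, no filter, a minimum count of 50, a replicate block, each library left out, other assignment limits and windows, and, chosen after seeing the data, protein-coding members only. A few results of the gene lists are not reported here.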

Additional observations from a re-analysis of the deposited data

How the results depend on the processing

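With 3 libraries a group, small differences at weakly open regions cannot be resolved, and low counts limit the regions near 2 CPM. Of the changes to scaling, filter and test, DESeq2 gave 1 closed member region at gene ends in place of 0, and offsets that follow abundance gave 1 higher member gene by summed gene-end counts in place of 4. Same-numbered libraries did not deviate together (correlations of -0.02, -0.078 and 0.076), and with a replicate block 2 member regions away from gene ends opened in place of 4 and 5 at gene ends in place of 6. A gene-end window of 1000 bases gave 2 opened member regions at gene ends and 8 elsewhere. A window of 5000 bases gave 3 closed member regions at gene ends, 2 closed elsewhere and 1 lower member gene.

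Leaving out each library in turn gave 1224 to 4259 opened and 4403 to 8410 closed regions over the whole table. At member gene ends it gave 2 to 8 opened regions and 0 to 0 closed, elsewhere 1 to 4 opened and 2 to 5 closed, and 1 to 6 higher and 0 to 0 lower member genes. The 8 opened gene-end regions were reached without replicate 2 with SMARTA cells, and the lowest number, 2, without replicate 1 without SMARTA cells and without replicate 3 with them. The cause was not tested, and these fits also held fewer libraries than the main one. None of the 19 member regions or gene sums that passed changed sign in any setting that was run.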
